A study of Mus musculus with 14 samples.

Results

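The genes followed here encode the enzymes that build fatty acids from citrate and then lengthen and desaturate them: Acly, Acaca, Acacb, Fasn, Scd1, Elovl5, Elovl6, Fads1, Fads2 and Me1. They were taken by gene symbol, 10 of 22263 genes listed in liver or kidney, and all 10 had a row in both the liver table of 19660 genes and the kidney table of 20203 genes. The 10 were selected on their liver CPM and fold changes in these same libraries, so their liver difference is given as a description without a test. RNA of liver and kidney was sequenced from adult male mice of 12 weeks, all of which carried the human angiotensinogen transgene of haplotype -6A (genotype Hap -6A). One set had a normal diet and the other high salt, and the study asked how salt changes expression of that transgene and of the mouse genome. Liver had 4 libraries per diet and kidney 3 per diet. A group without the transgene was not analysed here, and the salt dose and its duration are not given in the sources used here.

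De novo lipogenesis turns surplus carbon into fat. Mitochondrial citrate is cut to acetyl-CoA in the cytosol, carboxylated to malonyl-CoA and joined to palmitate with reducing power from NADPH, and the palmitate is then elongated and given double bonds at the endoplasmic reticulum. Liver is a main site of this pathway, where feeding, insulin and carbohydrate induce most of its genes through the factors SREBP-1c, ChREBP and LXR.

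Liver libraries of the normal diet keep the numbers 1 to 4 of their titles, and those of high salt are HS5 to HS8 after column numbers that match no title. Totals ran from 37267778 to 51487382 counts in liver and from 16046094 to 22004927 in kidney. Genes of the mitochondrial genome took 2.30% and 2.06% of counts in normal diet liver libraries 1 and 2, against 29.6% and 18.7% in libraries 3 and 4 and from 11.3% to 19.2% on high salt. HS5 and HS6 were more alike than any other liver pair within a diet, with a chi-square of 1.59 per gene against 9.83 to 62.8. That is above the value of 1 that counting noise alone gives, but cannot tell separate animals from repeat preparations of the same RNA. HS5 and HS6 were kept as separate libraries by choice, and calls are also given with their counts summed. Alb, the hepatocyte albumin gene, held 31700 to 85150 CPM (counts per 1000000, on library sizes scaled by the TMM method) in liver libraries, and Umod of the thick ascending limb held 1006 to 1839 CPM in kidney, as the tissue labels say. Nothing in the labels says that the libraries of a group came from separate animals, so p-values measure the spread between these libraries, which may be technical. In bulk tissue, fewer cells of a type and less RNA per cell cannot be told apart.

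The genes lie on 5 chromosomes (GRCm38, files and GENCODE M21). Acly (chromosome 11, 100476353 to 100528000, minus strand), Acaca (chromosome 11, 84129672 to 84401651, plus strand) and Fasn (chromosome 11, 120805846 to 120824547, minus strand) share chromosome 11. Fads2 (chromosome 19, 10062765 to 10101746, minus strand) and Fads1 (chromosome 19, 10182888 to 10196877, plus strand) are neighbours whose starts lie 81.1 kb apart. Scd1 (chromosome 19, 44394455 to 44407879, minus strand) starts 114.2 kb from its paralog Scd2. Elovl5 (chromosome 9, 77917364 to 77984519, plus strand) and Me1 (chromosome 9, 86581371 to 86695953, minus strand) share chromosome 9, and Acacb (chromosome 5, 114146535 to 114250761, plus strand) and Elovl6 (chromosome 3, 129532355 to 129638495, plus strand) each have a chromosome of their own among the 10. Annotated genes on the opposite strand overlap Elovl6 (Gm35986, at most 11.8 CPM in liver), Acaca (Gm11437, at most 2.21 CPM in liver) and Me1 (A330041J22Rik, at most 0.164 CPM in liver). Whether counting used the strand is not stated, so reads of such pairs cannot be told apart.

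Promoter sequence is shown for Fasn, Acly and Elovl5, members with a wide gap between the diets in liver whose RefSeq start lies within 1 base of the GENCODE gene start. Each line holds the 250 bases upstream of that start in GRCm38.p6 (RefSeq), 5′ to 3′ on the gene's strand: chr11:120824548-120824797 minus for Fasn, chr11:100528001-100528250 minus for Acly, and chr9:77917115-77917364 plus for Elovl5. Capitals mark the letters CCAAT (the NF-Y box), GGGCGG (the Sp1 box) and CACGTG (the E-box) on either strand, so that ATTGG and CCGCCC are matches on the other strand.
Fasn: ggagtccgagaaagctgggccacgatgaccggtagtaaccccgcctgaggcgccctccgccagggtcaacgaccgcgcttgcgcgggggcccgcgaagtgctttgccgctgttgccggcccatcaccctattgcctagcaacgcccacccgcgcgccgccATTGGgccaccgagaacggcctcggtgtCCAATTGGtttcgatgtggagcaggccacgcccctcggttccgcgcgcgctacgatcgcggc
Acly: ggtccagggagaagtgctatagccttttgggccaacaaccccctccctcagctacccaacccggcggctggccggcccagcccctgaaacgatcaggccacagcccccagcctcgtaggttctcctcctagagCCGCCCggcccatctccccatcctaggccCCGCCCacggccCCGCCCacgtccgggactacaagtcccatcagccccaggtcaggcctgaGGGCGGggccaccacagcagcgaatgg
Elovl5: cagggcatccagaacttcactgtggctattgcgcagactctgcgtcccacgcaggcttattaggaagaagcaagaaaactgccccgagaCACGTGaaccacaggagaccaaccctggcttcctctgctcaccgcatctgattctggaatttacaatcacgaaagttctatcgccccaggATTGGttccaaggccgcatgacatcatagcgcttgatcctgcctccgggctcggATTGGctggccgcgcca
The Fasn window held 3 CCAAT matches, the last pair of which overlap, and neither other box. The Acly window held 4 GGGCGG matches and no CCAAT. The Elovl5 window held 2 CCAAT matches and 1 CACGTG. RefSeq gave 9 windows for 8 of the 10 genes, and entries for Scd1 and Fads1 were not used here. CCAAT was present in 4 of the 9 windows against 33.8% of 32851 windows of the same length genome-wide, GGGCGG in 3 of 9 against 32.7%, and CACGTG in 1 of 9 against 6.02%. The sterol regulatory letters TCACNCCAC were in 0 of 9, against 1.05% of all windows. The RefSeq starts of the Acaca window, the Acacb window and the Me1 window with CCAAT lay 65766, 18983 and 8676 bases from the GENCODE gene start. The counts are therefore not all of windows at a gene's start. A match is a description of letters and not a binding site.

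In liver, 8 of the 10 genes were higher in every high salt library than in every normal diet library: Acly, Acaca, Acacb, Fasn, Scd1, Elovl5, Elovl6 and Me1. The ratios of their mean CPM ran from 3.01 for Elovl5 to 9.48 for Fasn. Fads1 and Fads2 overlapped between the diets. Of all 15130 genes tested in liver, 6.61% were higher on high salt without overlap, and nothing is read from the 8 of 10 because liver values chose the genes. The median log2 fold change of the 10 was 1.92, beside -0.023 over all genes.

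Acly cuts citrate into the acetyl-CoA that feeds the pathway. It held 89.6, 88.5, 104 and 85.2 CPM in normal diet libraries 1 to 4 and 404, 394, 245 and 341 CPM in HS5 to HS8. The normal diet libraries lay close together and the lowest high salt library was 2.36 times the highest of them. The means were 91.8 ± 8.32 and 346 ± 72.8 CPM (SD over 4 libraries per diet), and edgeR estimated the log2 fold change at 1.92 (SE, the standard error, 0.19).

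Me1, the cytosolic malic enzyme, is a source of NADPH for the synthase. Me1 counted 38.1, 64.6, 97.7 and 62.6 CPM on the normal diet and 408, 380, 213 and 272 CPM in HS5 to HS8. Its lowest high salt library was 2.18 times its highest normal diet library. Me1 averaged 65.8 ± 24.5 and 318 ± 91.4 CPM in the diets (SD over 4 libraries), with 2.28 as its log2 fold change (SE 0.32).

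Both acetyl-CoA carboxylases were higher on high salt. Acaca, the cytosolic enzyme that commits carbon to fatty acids, held 24.3, 29.0, 49.9 and 38.1 CPM on the normal diet and 138.6, 131, 106 and 137.7 CPM on high salt. High salt values of Acaca were the most even of the 10 genes, with a coefficient of variation of 12.1%. Acacb makes malonyl-CoA at the mitochondrial surface, where it holds back fatty acid import for oxidation, and held 10.3, 13.9, 24.1 and 37.6 CPM on the normal diet. In HS5 to HS8 it held 128, 133, 50.6 and 81.1 CPM. Normal diet values of Acacb were the most spread, with a coefficient of variation of 56.9%, and HS7 was only 1.35 times normal diet library 4. The log2 fold change was 1.86 (SE 0.24) for Acaca and 2.18 (SE 0.45) for Acacb. The ratio of Acaca to Acacb CPM within a library was 2.36, 2.08, 2.07 and 1.01 on the normal diet. HS5 and HS6 had ratios of 1.09 and 0.986 and HS7 and HS8 of 2.09 and 1.70, so the balance of both carboxylase transcripts overlapped between the diets.

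Fasn, the multidomain synthase that assembles palmitate, had the highest fold change of the 10 in liver. It held 65.0, 68.7, 94.0 and 137 CPM on the normal diet and 931, 997, 390 and 1142 CPM in HS5 to HS8. HS7 was the lowest high salt library at 2.84 times the highest normal diet library. Fasn averaged 91.2 ± 33.2 against 865 ± 329 CPM (SD over 4 libraries per diet), and the log2 fold change was 3.24 (SE 0.39). The ratio of Fasn to Acaca CPM within a library was higher on high salt in every library: it was 2.68, 2.37, 1.88 and 3.596 on the normal diet and 6.72, 7.60, 3.69 and 8.30 on high salt. HS7 lay just above normal diet library 4 in that ratio. Fasn over Acly overlapped between the diets, at 0.726 to 1.61 on the normal diet and 1.59 to 3.35 on high salt. Scd1 over Fasn also overlapped, at 9.04 to 36.9 and 12.55 to 20.9.

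Scd1, the desaturase that puts the first double bond into palmitate and stearate, had the highest level of the 10 in liver per length of transcript. It held 1639, 2538, 2083 and 1240 CPM on the normal diet and 19480, 18310, 7875 and 14330 CPM in HS5 to HS8. The lowest high salt library was 3.10 times the highest normal diet library, the widest gap of the 10. Scd1 averaged 1875 ± 560 without and 15000 ± 5234 CPM with high salt (SD over 4 libraries per diet), and its log2 fold change was 3.01 (SE 0.37). The HS5 count of Scd1 was deposited as 1080000, written with 3 significant digits, which leaves an error of at most 0.463%. Summed over the 10 genes, the enzymes took from 0.244% to 0.357% of scaled counts on the normal diet, 0.992% in HS7 and from 1.78% to 2.31% in the other high salt libraries. Without Scd1 the other 9 genes summed to 1027 to 1381 CPM on the normal diet and 2046 to 3648 CPM on high salt.

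**Figure D1:**
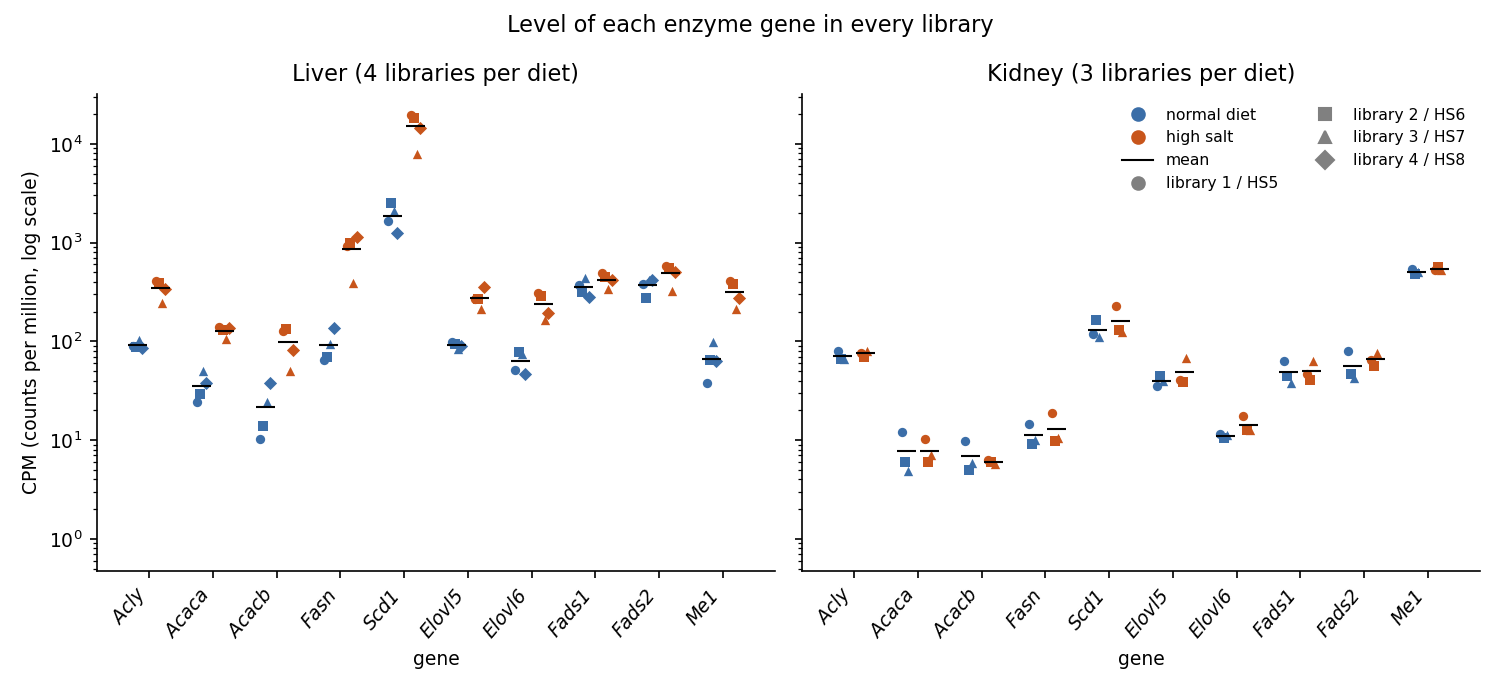
CPM of each gene in every library on a log scale, for liver (left) and kidney (right). Points are libraries, in blue for the normal diet and orange for high salt, with the marker shape giving the library number, and bars are group means. Liver Scd1 sits at 1240 to 2538 CPM on the normal diet and 7875 to 19480 CPM on high salt, while the kidney diets lie side by side.

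Elovl6 lengthens palmitate to stearate, the substrate of Scd1. It held 51.8, 78.3, 75.1 and 47.2 CPM on the normal diet and 308, 287, 166 and 194 CPM in HS5 to HS8. HS7 and HS8 were the lower high salt libraries, and HS7 was 2.12 times the highest normal diet library. Elovl5, which lengthens polyunsaturated fatty acids, held 97.3, 94.5, 83.5 and 89.3 CPM on the normal diet and 267, 265, 211 and 356 CPM on high salt. Normal diet values of Elovl5 were the tightest of the 10, with a coefficient of variation of 6.69%, and its highest library was HS8. The log2 fold change was 1.93 (SE 0.26) for Elovl6 and 1.60 (SE 0.18) for Elovl5.

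Fads2 takes the first desaturation step and Fads1 a later one in making arachidonic and docosahexaenoic acid from dietary precursors. Fads2 held 377, 272, 413 and 422 CPM on the normal diet and 574, 558, 327 and 499.6 CPM in HS5 to HS8. Fads1 counted 372, 317, 440 and 283 CPM on the normal diet and 490, 447, 339 and 414 CPM on high salt. In both genes HS7 lay below the highest normal diet library, so the diets overlapped. Fads2 had a log2 fold change of 0.40 (SE 0.23) and Fads1 of 0.26 (SE 0.20). Their ratio stayed near 1: Fads1 over Fads2 was 0.987, 1.17, 1.07 and 0.671 on the normal diet and 0.854, 0.800, 1.04 and 0.8285 on high salt. Scd1 and the polyunsaturated desaturases differed in how far apart the diets were. The ratio of Scd1 to Fads2 CPM was 4.35, 9.33, 5.04 and 2.94 on the normal diet and 34.0, 32.8, 24.1 and 28.7 on high salt, with no overlap. Elovl6 over Elovl2, an elongase of long polyunsaturated chains, went from 0.163, 0.234, 0.340 and 0.356 to 0.691, 0.670, 0.621 and 0.494, also with no overlap. Elovl6 over Elovl5 did overlap, at 0.5285 to 0.899 on the normal diet and 0.544 to 1.15 on high salt.

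**Figure D2:**
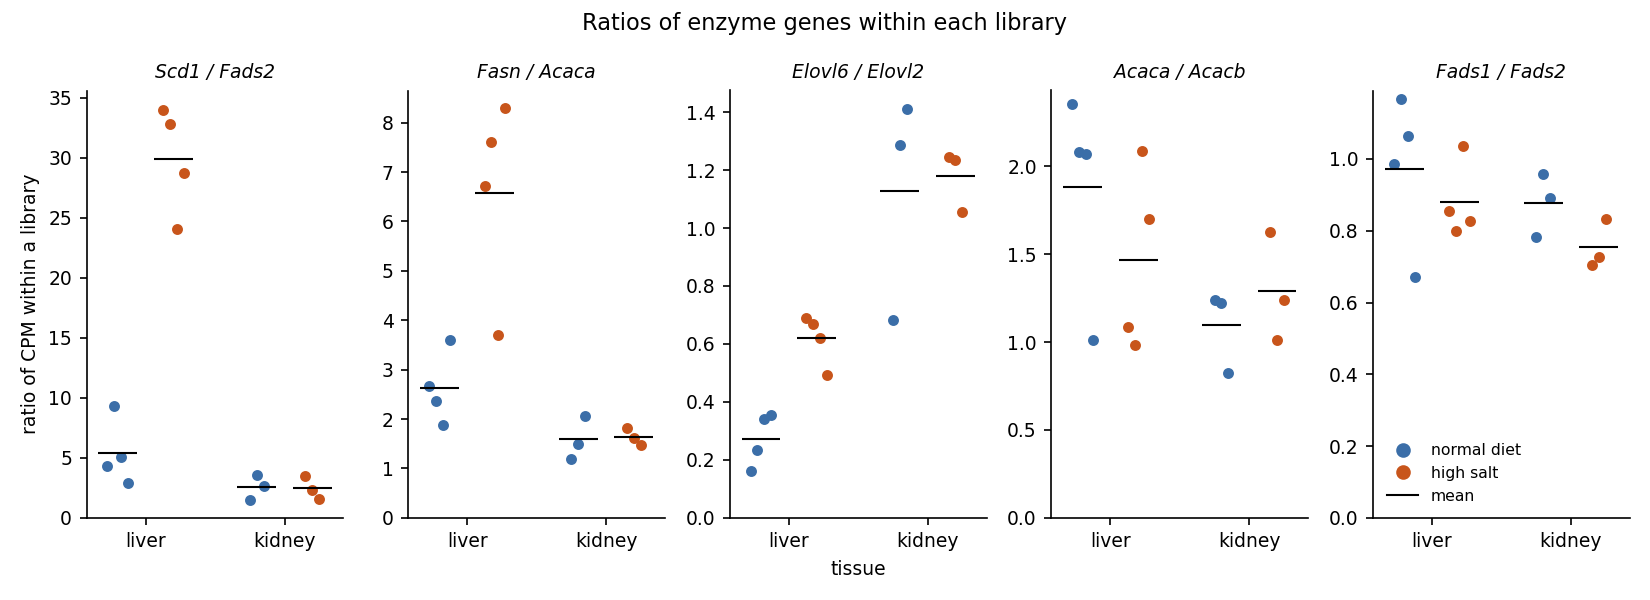
Ratio of CPM of gene pairs within each library, one panel per pair, with a linear axis from 0 in each panel. Points are libraries, blue for the normal diet and orange for high salt, and bars are means. In liver the Scd1 to Fads2 ratio is 2.94 to 9.33 on the normal diet and 24.1 to 34.0 on high salt, whereas Fads1 to Fads2 and Acaca to Acacb overlap between diets.

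HS7 had the lowest CPM of the high salt libraries for 10 of the 10 genes, and HS5 the highest for 7 of 10. HS7 also held the most of the kidney transcript Kap among liver libraries, 37.4 CPM or 0.0835% of the kidney median, against at most 9.73 CPM in the others. Kap had a log2 fold change of 3.63 in liver (edgeR adjusted p = 0.22), and Lrp2, another proximal tubule gene, was higher in every high salt library, at 1.01 to 2.24 CPM against 0.470 to 0.841 CPM. DESeq2 called Lrp2 and Slc22a6 of that list. The mitochondrial share of HS7 was 19.2%, the highest on high salt. The part of these in the liver values was not tested. By edgeR, 7 of the 10 passed the threshold of adjusted p under 0.05 in liver, where 0.595% of all genes were called higher, and DESeq2 called 8, where 3.25% were called higher; liver values chose the genes, so neither count is read as a test. With HS5 and HS6 summed to 1 library only Acly, Fasn and Elovl5 passed, where 0.052% of all genes were called higher. Without normal diet libraries 1 and 2 only Acly, Acaca and Elovl5 did, where 0.138% of all genes were called higher. The median log2 fold change of the 10 genes was 1.84 and 1.75 under those settings. With each library left out in turn, from 3 to 8 of the 10 passed. The count was 3 without HS6, where 12 of all 15413 genes were called, and 4 without HS5, where 18 of 15257 were. It was 8 without normal diet library 3 or 4, where 765 of 15471 and 409 of 15270 genes were called.

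Other cell types were followed through marker genes. Summed hepatocyte markers (7 of 7 genes in the table) were 55170 to 81810 CPM on the normal diet and 89810 to 108400 CPM on high salt, with no overlap, and 2 of the 7 were above 0 in log2 fold change. Most of that sum was Alb, at 31700 to 50500 CPM on the normal diet and 67200 to 85150 CPM on high salt. Cyp2e1 was lower in every high salt library, and Apoa1, Ttr, Fgb, Cps1 and Tat overlapped between the diets. Bile duct and stellate markers (6 of 6) summed to 20.8 to 41.9 CPM and 40.6 to 58.1 CPM, and endothelial markers (5 of 5) to 24.8 to 64.2 CPM and 39.4 to 69.3 CPM. The part of these markers in the liver differences was not tested. Macrophage markers (6 of 6) summed to 69.4 to 153 CPM on the normal diet and 48.5 to 105 CPM on high salt, and proximal tubule markers (7 of 7) to 45.7 to 87.2 CPM and 67.9 to 81.6 CPM. Lymphocyte markers (5 of 5) summed to 2.89 to 5.04 CPM and 3.93 to 4.202 CPM. Adipocyte markers, the list of most concern for lipogenic genes, summed to 28.7 to 37.7 CPM on the normal diet and 27.1 to 38.5 CPM on high salt over the 7 of 12 that the liver table lists. The defining adipocyte genes Adipoq and Plin1 were among the other 5, not analysed here in liver. Lpl had the highest mean of the 7, and Lpl, Fabp4 and Adrb3 had lower means on high salt. Cidec, Lipe, Cfd and Cidea had higher ones. Cfd held 0.02, 0.17, 0 and 0.02 CPM on the normal diet and 0.09, 0.14, 0.31 and 3.955 CPM in HS5 to HS8, with overlap. Cidea held at most 0.0243 CPM on the normal diet and 0.0204 to 0.104 CPM on high salt, from 0 to 5 counts. Their part in the liver values was not tested.

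In kidney 0 of the 10 passed the test between the diets. Kidney results were also known when the genes were picked, so these p-values are not independent evidence. The edgeR adjusted p was 0.9996 for each, 0 had an unadjusted p under 0.05, and DESeq2 called 0 of them. Among all 15847 kidney genes edgeR called 0, or 0%, with 318 genes or 2.01% at an unadjusted p under 0.05, and DESeq2 called 13 genes or 0.0644%. Normal diet library 1 weighed heavily on this fit. Without it 2627 of 16146 genes had an unadjusted p under 0.05, with 0 called by edgeR, and 1 of the 10 was among them: Fads2, whose log2 fold change went from 0.24 (SE 0.28) to 0.57 (SE 0.19, edgeR adjusted p = 0.25). The median log2 fold change of the 10 was 0.16, beside -0.025 over all kidney genes. Of the 10, 9 were above 0, where 46.3% of all genes were, and that count ran from 6 to 10 when each library was left out in turn, with 6 without high salt library 1 and 10 without normal diet library 1.

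Scd1 held 119, 165 and 111 CPM in normal diet kidney libraries 1 to 3 and 228, 129 and 124 CPM in high salt libraries 1 to 3. One high salt library was above all the others and the remaining 5 overlapped. Its log2 fold change was 0.28 (SE 0.30, 95% interval -0.41 to 0.97, edgeR adjusted p = 0.9996). The fat cell genes Adipoq (0.907, 5.12 and 0.483 CPM on the normal diet and 4.15, 1.88 and 0.364 CPM on high salt) and Plin1 (0.101, 1.51 and 0, and 1.38, 0.375 and 0 CPM) were also highest in normal diet library 2 and high salt library 1. Other fat cell genes had higher means on high salt: Ucp1, a brown fat gene, was 0 in all 3 normal diet libraries and 1.43, 1.13 and 0.137 CPM on high salt, and is 1 of the 13 kidney genes that DESeq2 called. Cidea held 0, 0.116 and 0.0483 CPM against 0.759, 0.938 and 0.0455 CPM. Their part in the kidney values was not tested. Summed adipocyte markers (12 of 12) were 826 to 2307 CPM and 1025 to 1420 CPM, most of it Lpl, and were highest in library 1 of both diets. Without normal diet library 2 and high salt library 1 the Scd1 log2 fold change was 0.15, and those of Acaca and Fasn turned to -0.35 and -0.27, with 0 genes passing; this alternative was chosen after seeing the data.

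Fasn held 14.6, 9.08 and 10 CPM on the normal diet and 18.7, 9.82 and 10.4 CPM on high salt in kidney. Library 1 was the highest in both diets, and the log2 fold change was 0.22 (95% interval -0.50 to 0.93). Elovl6 was the only one of the 10 without overlap, at 11.5, 10.4 and 11.3 CPM against 17.4, 12.5 and 12.8 CPM, where 3.67% of all kidney genes were higher without overlap. Its log2 fold change of 0.37 (95% interval -0.10 to 0.84) had an unadjusted p of 0.11 and an adjusted p of 0.9996 in edgeR. Acly overlapped between the diets, with 79.1, 66.4 and 65.5 CPM on the normal diet and 75.9, 70.0 and 80.2 CPM on high salt. The 95% interval of its log2 fold change was -0.32 to 0.53.

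Kidney Me1 held 542, 476 and 507 CPM on the normal diet and 524, 562 and 527 CPM on high salt. Its coefficient of variation was 6.48% and 3.96%, and the diets overlapped. The 95% interval of its log2 fold change ran from -0.36 to 0.53. Both carboxylases also overlapped between the diets: Acaca held 12.1, 6.05 and 4.83 CPM against 10.3, 6.07 and 7.06 CPM, and Acacb held 9.77, 4.95 and 5.85 CPM against 6.34, 6.003 and 5.69 CPM. Acacb rested on 85 to 194 counts per library, the fewest of the 10, and was the only gene below 0, at -0.19 (95% interval -0.84 to 0.47). Fads1 (62.7, 44.5 and 38.0 CPM against 46.2, 40.9 and 63.9 CPM), Fads2 (80.0, 46.4 and 42.7 against 65.5, 56.3 and 76.9) and Elovl5 (35.6, 44.6 and 39.9 against 40.7, 39.0 and 68.4) overlapped between diets. High salt library 3 was the highest for each of them on that diet. Over the 10 genes the upper bounds of the 95% intervals ran from 0.47 for Acacb to 0.97 for Scd1.

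Set gene by gene against kidney, the liver difference was larger by 3.06 (SE 0.54) on the log2 scale for Fasn, 2.73 (SE 0.62) for Scd1 and 2.41 (SE 0.59) for Acacb. Me1 differed by 2.21 (SE 0.42), Acaca by 1.85 (SE 0.44), Acly by 1.83 (SE 0.29), Elovl6 by 1.57 (SE 0.37) and Elovl5 by 1.30 (SE 0.33). For Fads1 and Fads2 the difference was 0.21 (SE 0.35) and 0.18 (SE 0.39), below its standard error in each. These values carry no p because liver chose the genes. Over all 16633 genes of the joint fit edgeR called 0 for liver minus kidney, or 0%, with 10.1% at an unadjusted p under 0.05, and DESeq2 called 142 or 0.841%. The median over the 10 genes was 1.84, beside 0.022 over all genes.

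**Figure D3:**
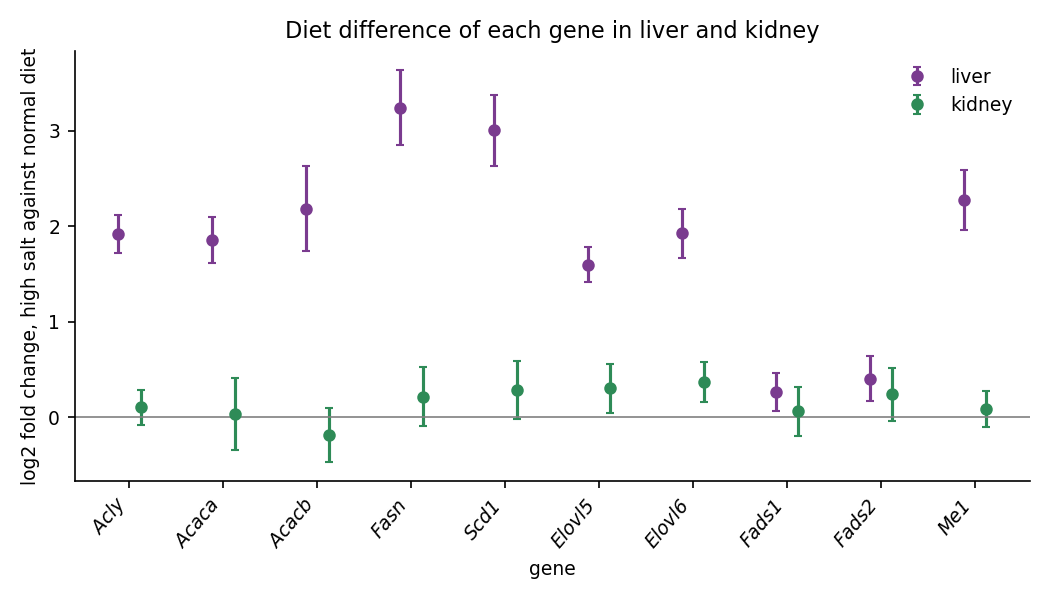
Log2 fold change of high salt against the normal diet for each gene in liver (purple) and kidney (green), with bars of 1 standard error from edgeR. In liver, 8 genes lie at 1.60 to 3.24 and Fads1 and Fads2 at 0.26 and 0.40, and kidney values lie between -0.19 and 0.37.

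Level and order of the genes differed between the tissues. On CPM scaled over all 14 libraries together, Me1 was the one gene higher in kidney: 410 ± 24.6 CPM (SD, n = 3) against 77.9 ± 27.4 CPM in liver (SD, n = 4) on the normal diet, 5.26 times as much. On high salt the tissues overlapped, at 434 ± 20.6 CPM in kidney and 385 ± 118 CPM in liver. The other 9 were higher in every liver library than in every kidney library on either diet. The share of all genes that differ in this way between the tissues was not computed, so nothing is read from that count. On the normal diet the liver to kidney ratio of these 9 ran from 1.93 for Acly to 21.1 for Scd1, and on high salt from 6.87 for Acly to 141 for Scd1. For Fasn the ratio went from 12.0 to 100.2.

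Per kilobase of annotated transcript, Scd1 led in normal diet liver at 388 ± 116 CPM per kb (SD, n = 4). Fads2 followed at 118 ± 21.8 CPM per kb and Fads1 at 81.8 to 127 CPM per kb (median 99.6), which overlapped, and then Elovl5 at 32.8 ± 2.19 CPM per kb. From Acly (20.9) through Me1 (20) and Elovl6 (10.6) to Fasn (9.08 CPM per kb) each overlapped with the next, and Fasn lay above Acaca in every library. Acaca (3.72 CPM per kb) and Acacb (2.45) came last and swapped places when length was taken over the union of exons. In high salt liver Scd1 was again first, at 3104 ± 1083 CPM per kb. Below it, from Fads2 (155) through Fads1 (122), Elovl5 (98.8), Me1 (96.8) and Fasn (86.1) to Acly (78.8 CPM per kb), each overlapped with the next. Acly lay above Elovl6 (40.1 CPM per kb) in every library. In normal diet kidney Me1 led at 155 ± 10.01 CPM per kb (SD, n = 3), above Scd1 at 27.3 CPM per kb, and Fasn, Acaca and Acacb closed the order at 1.12, 0.807 and 0.780 CPM per kb.

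**Figure D4:**
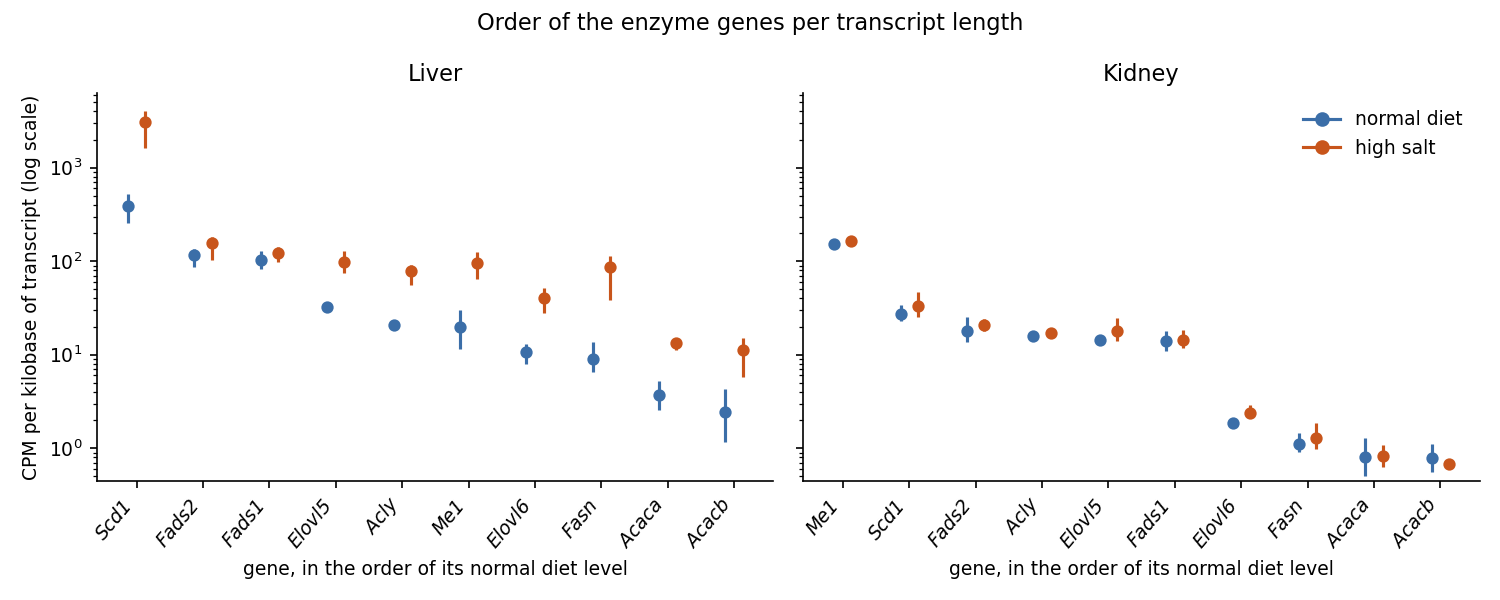
Mean CPM per kilobase of transcript on a log scale for each gene in liver (left) and kidney (right), in the order of its normal diet level, with lines from the lowest to the highest library. Scd1 leads in liver at 388 CPM per kb on the normal diet and Me1 leads in kidney at 155.

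Around these enzymes, 73 further genes of fatty acid supply, control and modification were listed, of which 62 were tested in liver and 64 in kidney. By edgeR 0 of the 62 passed in liver, with 11 higher and 8 lower at an unadjusted p under 0.05 (9.83% and 11.3% of all liver genes), and 0 of the 64 in kidney, with 0 at an unadjusted p under 0.05. DESeq2, which covered 68 of the 73 in liver, called 5 higher there (Acss2, G6pdx, Mid1ip1, Pgd and Scd2), where 3.25% of all genes were called higher. It called 2 lower (Mecr and Mlx), where 1084 of 16140 genes were called in either direction, 525 of them higher. In kidney it called 0, where 0.0644% of all genes were called. The edgeR count in liver changed with the libraries used. Without normal diet library 3, 4 of 63 list genes passed (Mcat, Mecr, Nr1h3 and Scd2), where 765 of all 15471 genes did. Without library 4, 1 of 63 passed (Cyb5r4), where 409 of 15270 did. Without HS7, 2 of 63 passed (Acss2 and Pgd), where 120 of 15295 did. Without libraries 1 and 2, 1 of 64 passed (Mid1ip1), where 52 of 15885 did. In liver 30 of the 62 were above 0, where 48% of all genes were.

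Carbon and NADPH supply genes (8 tested in liver) had a median log2 fold change of 0.30 and a range of -0.37 to 1.14, beside 0.22 in kidney. Mdh1, cytosolic malate dehydrogenase, held 711, 760, 526 and 427 CPM on the normal diet and 491, 461, 459 and 448 CPM in HS5 to HS8. Idh1, the cytosolic isocitrate dehydrogenase, held 442, 435, 371 and 316 CPM and 397, 372, 400.4 and 354 CPM, with overlap in both genes. Pgd of the pentose phosphate path held 17.3, 19.6, 16.4 and 17.1 CPM against 36.1, 37.5, 19.5 and 31.4 CPM, a log2 fold change of 0.83 with an edgeR adjusted p of 0.083. HS7 lay just below normal diet library 2 in this gene. Pgd is named, as are Mid1ip1, Scd2, Mecr and Mlx, because DESeq2 called it, a choice made after its values were seen.

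Genes that control the carboxylases and the synthase (12 tested) had a median of 0.31 in liver and -0.0081 in kidney. Thrsp, which with Mid1ip1 promotes lipogenesis, held 588, 1244, 510 and 264 CPM on the normal diet and 1228, 1207, 689 and 907 CPM on high salt, so normal diet library 2 was the highest of all 8. Mid1ip1, a carboxylase partner, did not overlap: 24.8, 34.9, 10.1 and 8.34 CPM against 60.0, 59.0, 40.2 and 72.2 CPM. Its log2 fold change was 1.58 with an edgeR adjusted p of 0.098, and without normal diet libraries 1 and 2 it passed. Mlycd, which destroys malonyl-CoA, held 160, 134, 58.5 and 79.5 CPM on the normal diet and 70.3, 71.1, 67.7 and 70.8 CPM on high salt. Normal diet libraries 1, 2 and 4 stood above the high salt range of Mlycd and library 3 below it.

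Among other desaturases and electron donors (8 tested, median 0.38 in liver and -0.091 in kidney), Scd2 was low in liver at 1.80, 1.69, 3.18 and 1.97 CPM on the normal diet and 5.54, 4.61, 3.32 and 5.23 CPM on high salt. Those diets did not overlap, and the edgeR adjusted p was 0.078. In kidney Scd2 held 33.4 to 74.2 CPM. Cyb5a, the cytochrome b5 that hands electrons to the desaturases, held 2127, 2329, 947 and 776 CPM on the normal diet and 739, 688, 1414 and 884 CPM on high salt. Cyb5r3, its reductase, held 325, 285, 278 and 268 CPM and 457, 461, 294 and 505 CPM, and only HS7 overlapped with the normal diet. Other elongation enzymes (9 tested) had a median of -0.15 in liver and 0.048 in kidney. Elovl2 held 318, 335, 221 and 133 CPM against 445, 428, 268 and 393 CPM, and the dehydratase Hacd3 held 186, 167, 142 and 140.0 CPM against 133, 127, 125.7 and 114.2 CPM (edgeR adjusted p = 0.22).

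The separate fatty acid synthesis system of mitochondria, which makes the precursor of lipoic acid, had a median of -0.32 in liver and 0.23 in kidney over 8 tested genes. All 8 were below 0 in liver, where 48% of all genes were above 0, and normal diet libraries 1 and 2 stood above libraries 3 and 4 in several of them. Lias, which makes lipoic acid, held 33.9, 35.5, 20.1 and 21.4 CPM on the normal diet and 21.5, 19.3, 18.4 and 20.2 CPM on high salt. Mecr, its reductase, held 31.2, 31.5, 21.5 and 27.97 CPM on the normal diet and 19.6, 19.5, 16.4 and 14.9 CPM on high salt, a log2 fold change of -0.66 with an edgeR adjusted p of 0.084. Cbr4 (31.3, 33.7, 23.8 and 23.98 CPM against 23.5, 22.7, 26.0 and 23.7 CPM) and Oxsm (31.3, 33.3, 17.8 and 22.4 against 22.5, 23.3, 24.8 and 24.1) overlapped between the diets. Acyl-CoA synthetases, which activate fatty acids, had a median of 0.19 in liver and -0.11 in kidney over 4 tested genes. Acsl1 held 515, 552, 706 and 309 CPM against 731, 695, 801 and 509 CPM, and Acsl5 held 242, 276, 203 and 151 CPM against 361, 320, 286 and 304 CPM, without overlap but with an edgeR adjusted p of 0.17.

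Lipogenic regulators (13 tested) had medians of 0.088 in liver and -0.12 in kidney. Srebf1, the gene of SREBP-1, held 170, 211, 65.7 and 35.9 CPM on the normal diet and 214, 225, 164 and 393 CPM on high salt. HS7 lay below normal diet libraries 1 and 2, and the log2 fold change of 1.07 (SE 0.50) had an edgeR adjusted p of 0.25. Insig1, which retains SREBP in the endoplasmic reticulum, held 453, 473, 244 and 129 CPM and 206, 199, 146 and 324 CPM, with overlap.

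**Figure D5:**
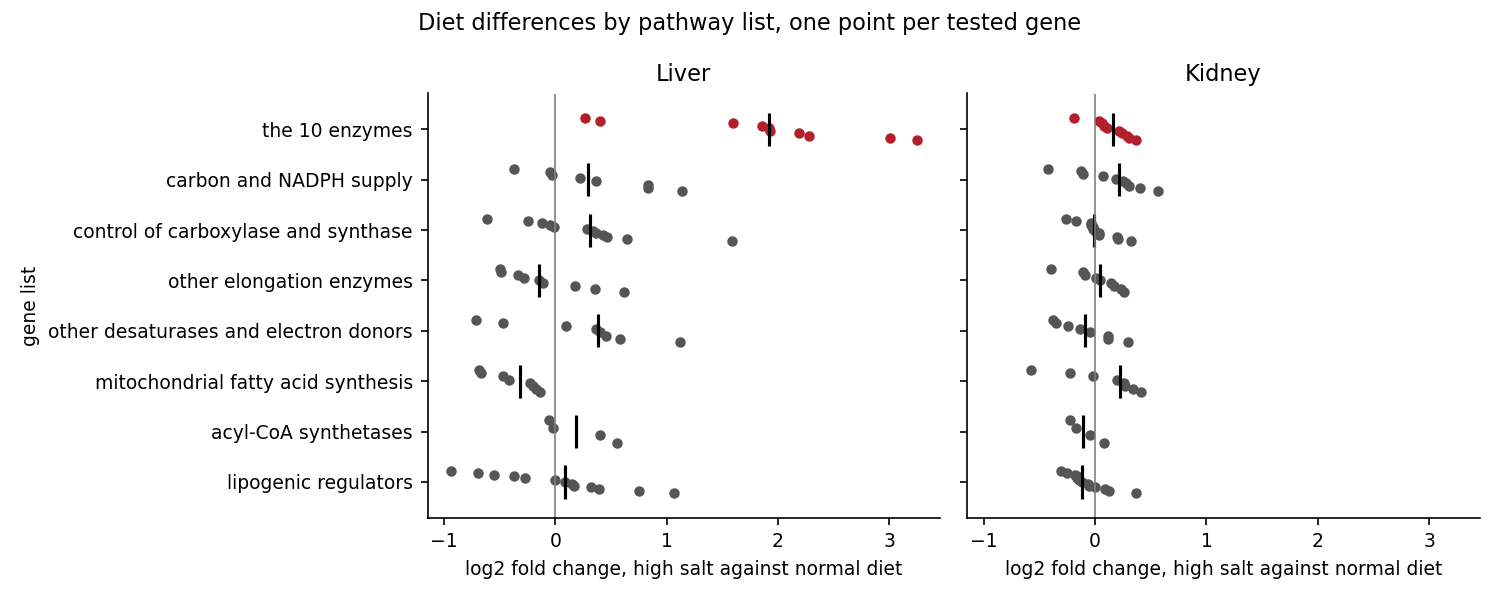
Log2 fold change of high salt against the normal diet for each tested gene, in liver (left) and kidney (right), with one row per gene list and a black bar at the median. The 10 enzymes (red) have a median of 1.92 in liver, the other lists (grey) have medians of -0.32 to 0.38 there, and kidney medians lie between -0.12 and 0.23.

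Genes that varied most like the 10 among libraries of the same diet were ranked by Pearson r with their mean, after the mean of each diet was taken off. Over 8 liver libraries and 12180 genes the highest were Arrdc2 (r = 0.98), Rnps1-ps (0.97), Ston1 (0.97), Pgm1 (0.97) and Tent4a (0.96). Pgm1, phosphoglucomutase, held 99.9, 103, 127 and 116 CPM on the normal diet and 154, 145, 104 and 129 CPM in HS5 to HS8. Like the 10 genes, it was lowest on high salt in HS7. The members' own r ran from 0.40 for Elovl5 to 0.96 for Acly. In both tissues each member is part of the mean it was compared with. Its r is therefore biased upward and is not read as co-variation. Over 6 kidney libraries and 11814 genes the highest were Ap1b1, Gm5831, Sp1, Tpp1 and Mon2, each at 0.999 or above, and the members ran from -0.11 for Elovl5 to 0.96 for Acaca. Kidney Ap1b1 held 27.6, 11.2 and 10.6 CPM on the normal diet and 21.2, 11.5 and 17.8 CPM on high salt, highest in library 1 of both diets as Acaca was. All libraries of a tissue share their depth and composition effects in such an r, and no test was made.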

How the data were processed

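RNA libraries of liver and kidney were made with a SMARTer mRNA kit from total RNA, per the labels' protocols. The submitters' processing notes name STAR 2.5.3a, Partek 7.0, DESeq2 and the build mm10. The authors deposited expected counts per gene, per the file headers and values, and a linear normalized signal for each gene. In liver that deposited signal is the expected count times 1 factor per library (0.767 to 1.37). In kidney it holds 24399 genes, and how it was normalized is not given in the sources used here.

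Columns were matched to samples by name, and high salt liver columns only to their group. After rounding, expected counts were fitted by the quasi-likelihood method of edgeR 4.0.16 in R 4.3.3, with TMM scaling and the filterByExpr filter, separately per tissue on diet, and in 1 fit of 14 libraries for liver minus kidney. Benjamini-Hochberg adjusted p under 0.05 over all genes tested was called. CPM uses TMM library sizes. Common biological coefficients of variation were 0.313 (liver) and 0.299 (kidney). Replicate spread therefore limits the precision more than counting. In simulated data with known log2 changes of 2, the liver fit recovered 197 of 200 over 15183 genes, the kidney fit 198 of 200 over 15747, and the liver minus kidney fit 118 of 198 over 16578. False calls were 9, 8 and 8. The simulation gave all genes of a tissue the same spread, made all libraries independent, and changed only genes of higher counts. Its recovery is therefore not the power of the fits to the real libraries. Lengths come from GENCODE M21, whose names matched 97.8% of liver and 97.7% of kidney genes. DESeq2 1.42.0, limma 3.58.1 on log2 of the deposited signal plus 1, another scaling, no filter, leaving out mitochondrial genes or libraries, the replicate block and summing HS5 with HS6 were alternatives.

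The 10 genes and the lists were chosen with earlier results of these data known. Named were the 10, list genes past the threshold, the 2 most abundant liver genes of each pathway list and the 5 genes most like the 10 in each tissue. Those named because DESeq2 called them are marked. Also named, outside this rule, were Lias, Mlxipl, Nr1h3, marker genes and list genes that passed with libraries left out. A comparison of protein sequences was planned and not run.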

Additional observations from a re-analysis of the deposited data

Results flagged for a closer look

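Among 58 groups of 4 liver libraries (29 named genes in each diet), 1 library stood far from the other 3 by Dixon's ratio of gap to range, where chance alone flags about 2.9 groups. Arrdc2, an arrestin-domain gene that varied among libraries like the 10 enzymes, held 6.25 CPM in HS7 against 10.7, 10.2 and 10.5 CPM in HS5, HS6 and HS8. The gap was 0.898 of the range, above Dixon's 95% critical value for 4 values. Arrdc2 was picked for its likeness to enzymes that were lowest in HS7, so this is no separate sign about that library.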

How the results depend on the processing

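The fold changes of the 10 genes in liver kept their direction under all 15 alternatives, from 0.17 for Fads1 to 3.51 for Fasn, and no median over the 10 changed sign in either tissue. The number of genes called in liver, 152 by edgeR, was 1084 with DESeq2, 12 with HS5 and HS6 summed, 52 without normal diet libraries 1 and 2, and between 12 (without HS6) and 765 (without normal diet library 3) when each library was left out. In kidney DESeq2 called 13 genes where edgeR called 0. For liver minus kidney DESeq2 called 142 genes, the fit without normal diet libraries 1 and 2 called 1, and leaving out each library gave 0 to 7 (7 without HS7), against 0. In kidney, leaving out each library gave log2 fold changes of -0.22 to 0.53 for Acaca, -0.37 to 0.15 for Acacb, -0.14 to 0.44 for Fasn, -0.054 to 0.48 for Scd1, -0.0018 to 0.45 for Elovl5 and -0.15 to 0.29 for Fads1 and 0.073 to 0.57 for Fads2, none of which passed. Without kidney normal diet library 2 and high salt library 1, an alternative chosen after seeing the data, Acaca was at -0.35 and Fasn at -0.27. For liver minus kidney, leaving out each library gave -0.0045 to 0.41 for Fads1 and -0.14 to 0.34 for Fads2, the lowest values without kidney normal diet library 1. The cause was not tested. Same-numbered kidney libraries correlated at 0.41, 0.37 and -0.090 in their deviations, and libraries of other numbers at -0.47 to 0.39. These few values cannot tell whether the numbers pair the libraries, and the main fit used no block. With the replicate block, 0 kidney genes passed, 459 rather than 318 had an unadjusted p under 0.05 (2627 without normal diet library 1), and the median over the 10 was 0.14. No paired fit was made in liver because its high salt columns carry numbers that match no title. The fewest counts behind a kidney value were 85, for Acacb.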
